A study of Mus musculus with 15 samples.

Results

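Selenoproteins carry selenocysteine, the amino acid in which selenium takes the place of the sulfur of cysteine. The expression of 10 genes for such proteins, 3 glutathione peroxidases and 7 others, was followed in bone marrow-derived macrophages (BMDMs) with and without STAT5. These 10 are part of the 24 mouse genes with an annotated selenocysteine, in a table of 55385 genes. They were selected on expression measured in these same libraries, and which comparison decided the choice of each gene is not recorded. Their adjusted p-values therefore set each difference against the spread between libraries of the same group and are not independent evidence. All 10 passed the filter on low counts and were among the 13005 genes tested.

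The RNA came from BMDMs of BALB/c mice aged 6 weeks per the labels, with floxed Stat5 alleles in every mouse. STAT5fl/fl mice carried no Cre (2 mice, numbered 112 and 113), and STAT5cKO mice also carried Csf1r-iCre (3 mice, numbered 114, 115 and 116). Each mouse gave BMDMs that were kept for 2 h in DMEM without serum, with rmGM-CSF at 20 ng/mL, a cytokine that signals through STAT5, or with 4T1 CM, medium taken from serum-starved 4T1 mammary tumor cells. This gave 15 libraries in 6 groups, and 1 STAT5fl/fl replicate had been removed by quality control according to the methods of the study. Csf1r-iCre is active in myeloid cells generally and not in a single cell type, and it was present in the STAT5cKO mice alone, so that effects of Cre, of the individual mice and of STAT5 loss cannot be told apart. The cells were measured in bulk, where fewer cells of a type and less RNA per cell cannot be told apart.

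Selenocysteine is inserted at an in-frame UGA, a codon that otherwise ends translation. A hairpin in the 3′ end of the mRNA, the SECIS element, recruits SECISBP2 and the elongation factor EEFSEC, which deliver the selenocysteine tRNA. Where the UGA is read as a stop and lies upstream of the last exon junction, the mRNA can become a target of nonsense-mediated decay, and the mRNAs of Gpx1, Selenow and Selenoh are known to fall when selenium is scarce. Glutathione peroxidases reduce hydrogen peroxide or lipid peroxides with glutathione, and macrophages, which make oxidants in quantity, express several of them.

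The codons that define these genes are shown because they are what the 10 genes share. Each line gives the sense strand around the first selenocysteine codon, from the GRCm38 coding sequence. The selenocysteine codon TGA is in capitals, as is a cysteine codon TGT that lies 3 codons before it.
Gpx1: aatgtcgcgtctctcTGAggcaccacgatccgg
Gpx3: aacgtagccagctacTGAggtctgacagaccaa
Gpx4: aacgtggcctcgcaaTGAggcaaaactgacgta
Selenow: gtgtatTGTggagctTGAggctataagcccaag
Selenom: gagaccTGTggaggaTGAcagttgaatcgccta
Selenoh: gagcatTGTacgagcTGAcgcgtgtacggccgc
Selenop: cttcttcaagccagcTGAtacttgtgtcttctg
Selenos: ccatcatctggcggcTGAaac
Selenok: ccaatggctggtggaTGAggaagg
Txnrd2: actgtgactggttgcTGAggc

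The position of the codon divided the genes. It was codon 47 of 201 in Gpx1, 73 of 226 in Gpx3 and 13 of 88 in Selenow, and the last but 1 or the last but 2 in Selenos (189 of 190), Txnrd2 (526 of 527) and Selenok (92 of 94). A cysteine codon 3 before it was present in Selenow, Selenom and Selenoh. Selenop had 10 selenocysteine codons, the others 1 each. In the transcripts used, the first TGA lay over 55 bases upstream of the last exon junction in 8 of the 10 genes, the exceptions being Selenos and Selenok, and in 6 of the 14 other selenoprotein genes.

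The libraries held between 16016736 and 22883108 counts, with 3 counts, the floor of detection, equal to a CPM (count scaled to the library total) of 0.131 to 0.187, a floor that covers counting error only. Stat5a had at most 3 and Stat5b at most 4 counts in any STAT5cKO library, against at least 637 and 977 in the STAT5fl/fl libraries. All 8 macrophage markers were expressed, among them Csf1r (3830 to 4200 CPM), and their summed level was higher in every STAT5cKO library (31100 to 46600 CPM) than in any STAT5fl/fl library (24700 to 29900 CPM). Lyz2 alone, at 17000 to 34500 CPM over all libraries, made up most of this sum. The T cell markers Cd3e and Cd3d stayed at or under the floor in all libraries, as did 3 of the 5 neutrophil markers, Ly6g among them at 0. The summed neutrophil markers were at 0.312 to 1.65 CPM in STAT5fl/fl and 0.23 to 2.46 CPM in STAT5cKO, with S100a8 at up to 2.36 CPM. The 5 dendritic cell markers summed to 1.14 to 4.36 CPM in STAT5fl/fl and 1.43 to 3.68 CPM in STAT5cKO, with Zbtb46 at up to 3.86 CPM. The summed stromal markers reached 1 to 2.27 CPM in STAT5fl/fl and 2.55 to 8.56 CPM in STAT5cKO libraries, and of the mast cell markers Cpa3 was at 0 in all libraries while Kit ran from 6.25 to 23.6 CPM in STAT5fl/fl and from 1.18 to 7.49 CPM in STAT5cKO libraries. The part of these differences in the results was not tested.

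Expressed per kilobase of exon, which allows genes to be compared, Selenop was the most abundant of the 10, with a median level of 888 CPM per kb over the 15 libraries (794 to 1190). Gpx1 came second (median 410, range 215 to 489). These medians lay at the 99.8th and 99.6th percentile of the tested genes. Selenow (88.2), Gpx4 (67.9) and Gpx3 (50.7 CPM per kb) followed, and then Selenos (43.4) and Selenok (42.1), each with a range that overlapped that of the next. Selenom had a median of 20.8 CPM per kb (12.5 to 26.8), with every library below all libraries of those genes. The lowest levels were those of Selenoh (5.41) and Txnrd2 (4.54 CPM per kb), again with overlapping ranges.

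**Figure D1:**
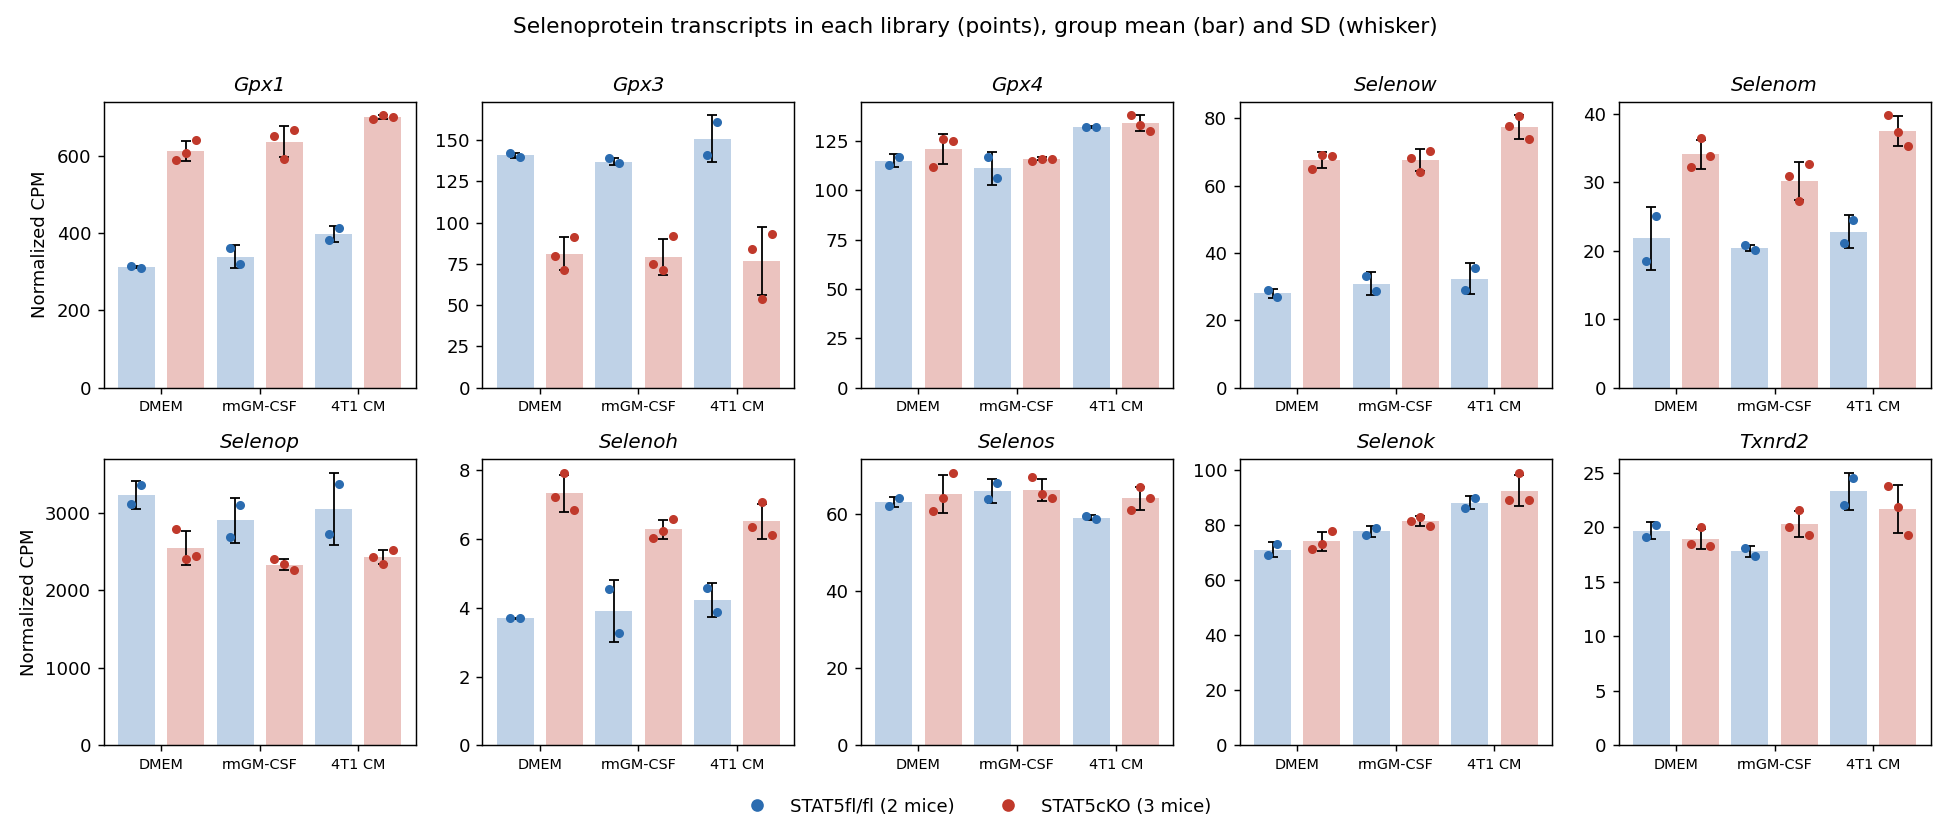
Normalized CPM of the 10 selenoprotein transcripts (1 panel each, linear axis from 0) in STAT5fl/fl (blue, 2 mice) and STAT5cKO (red, 3 mice) BMDMs after DMEM, rmGM-CSF or 4T1 CM; points are libraries, bars group means and whiskers the SD. Gpx1, Selenow, Selenom and Selenoh sat higher in STAT5cKO in all 3 treatments and Gpx3 and Selenop lower, and the genotypes of Gpx4, Selenos, Selenok and Txnrd2 lay close together.

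Between the genotypes the 10 genes went in different directions. With DMEM, 4 of the 10 genes were higher in STAT5cKO at an adjusted p-value under 0.01 (Gpx1, Selenow, Selenom and Selenoh) and 1 was lower (Gpx3), beside 0.938% of all tested genes higher, 1.55% lower and 2.49% in either direction. With rmGM-CSF the same 4 genes were higher and Gpx3 was lower, beside 3.57% of all genes higher, 6.24% lower and 9.8% in either direction. With 4T1 CM 3 were higher and Gpx3 was lower, beside 4.13%, 3.57% and 7.7% of all genes, and Selenoh missed the threshold (adjusted p = 0.0102). The median log2 fold change of the 10 genes was 0.069, 0.132 and 0.095 in the 3 treatments, and that of all tested genes was 0.001, 0 and 0.01. Since expression in these libraries entered the choice of the 10, nothing is read from these shares. All these p-values are from edgeR's quasi-likelihood F test with Benjamini-Hochberg adjustment across the 13005 genes.

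Gpx1, the cytosolic glutathione peroxidase that reduces hydrogen peroxide, was higher in STAT5cKO BMDMs in every treatment. With DMEM its normalized level was 314 and 310 CPM in STAT5fl/fl mice 112 and 113, and 588, 608 and 640 CPM in STAT5cKO mice 114, 115 and 116. With rmGM-CSF it was 360 and 319 CPM against 651, 591 and 666 CPM. With 4T1 CM it was 383 and 412 CPM against 695, 704 and 701 CPM. The lowest STAT5cKO library under any treatment thus lay above the highest STAT5fl/fl library under any treatment. The log2 fold change of STAT5cKO against STAT5fl/fl was 0.97 (SE 0.0699, adjusted p = 4.36e-07) in DMEM, 0.91 (SE 0.0699, adjusted p = 5.21e-08) with rmGM-CSF and 0.82 (SE 0.0694, adjusted p = 8.06e-07) with 4T1 CM. These are 1.96-, 1.87- and 1.76-fold. With DMEM, 169 of the 13005 genes had a higher log2 fold change, with rmGM-CSF 272 and with 4T1 CM 324.

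Gpx3, the secreted glutathione peroxidase of plasma, went the opposite way. Its level with DMEM was 142 and 140 CPM in STAT5fl/fl and 80, 71.6 and 91.6 CPM in STAT5cKO. With rmGM-CSF it was 139 and 136 CPM against 74.8, 71.5 and 91.8 CPM. With 4T1 CM it was 141 and 161 CPM against 83.9, 53.5 and 93.3 CPM. The genotypes did not overlap in any treatment. With so few libraries, such separation was also seen in single treatments for genes that were not called. Mouse 115 was the lowest of the STAT5cKO mice in each treatment. The log2 fold change was -0.79 (SE 0.16, adjusted p = 0.00629) with DMEM, -0.79 (SE 0.162, adjusted p = 0.00226) with rmGM-CSF and -0.97 (SE 0.16, adjusted p = 0.000515) with 4T1 CM, or 1.73-, 1.73- and 1.96-fold lower. The call was lost with DMEM and with rmGM-CSF on leaving out mouse 112, 113 or 114, and with 4T1 CM on leaving out mouse 113 or in a model of the compared libraries alone, although the log2 fold change stayed between -1.13 and -0.71 in all alternatives.

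Gpx4, the peroxidase that reduces lipid peroxides within membranes and restrains ferroptosis, showed no such difference. Group means ran from 111 to 134 CPM. STAT5cKO against STAT5fl/fl gave a log2 fold change of 0.08 with DMEM (95% CI -0.055 to 0.21), 0.06 with rmGM-CSF (-0.078 to 0.19) and 0.02 with 4T1 CM (-0.11 to 0.15), so that a change as large as that of Gpx1 lies outside all 3 intervals. Reads of Gpx4 may be shared with its processed copy Gpx4-ps2, which held 587 to 1172 counts in these libraries, and the level of Gpx4 is uncertain to that extent.

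Selenow, a small selenoprotein with a thioredoxin-like fold, had the largest fold change of the 10 in each treatment. With DMEM its level was 29 and 27 CPM in STAT5fl/fl and 64.9, 69.1 and 68.8 CPM in STAT5cKO. With rmGM-CSF it was 33.2 and 28.6 CPM against 68.1, 63.9 and 70.3 CPM. With 4T1 CM it was 29.1 and 35.5 CPM against 77.7, 80.7 and 73.8 CPM. Every STAT5cKO library lay above every STAT5fl/fl library. The log2 fold change was 1.27 (SE 0.0886, adjusted p = 3.41e-07), 1.13 (SE 0.0903, adjusted p = 8.14e-08) and 1.26 (SE 0.0884, adjusted p = 6.32e-08), respectively, or 2.42-, 2.19- and 2.4-fold. With DMEM, 85 of the 13005 genes had a higher log2 fold change. The genotype calls of Gpx1 and Selenow were kept in each of 11 alternatives of the analysis in all 3 treatments, the exclusion of each mouse included.

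Selenom, a selenoprotein of the endoplasmic reticulum (ER) with a cysteine 3 codons before the selenocysteine like Selenow, was raised less. With DMEM the level was 18.5 and 25.1 CPM in STAT5fl/fl against 32.2, 36.4 and 33.8 CPM in STAT5cKO. With rmGM-CSF it was 20.8 and 20.1 CPM against 30.9, 27.2 and 32.7 CPM. With 4T1 CM it was 21.1 and 24.5 CPM against 39.8, 37.3 and 35.3 CPM. The genotypes were apart in each treatment, and with DMEM the STAT5fl/fl mice themselves differed, mouse 112 being the lower. The log2 fold change was 0.64 (SE 0.114, adjusted p = 0.00254), 0.56 (SE 0.121, adjusted p = 0.00333) and 0.72 (SE 0.115, adjusted p = 0.000413). Without mouse 112 the difference with DMEM was 0.45 (adjusted p = 0.0678), and leaving out mouse 115 or 116 with DMEM, or mouse 113, 114 or 116 with rmGM-CSF, also ended the call.

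Selenoh, a nuclear selenoprotein that binds DNA, was expressed at a low level, with 61 to 94 counts in STAT5fl/fl and 103 to 182 counts in STAT5cKO libraries. With DMEM this came to 3.69 and 3.71 CPM against 7.22, 7.93 and 6.84 CPM. With rmGM-CSF it was 4.55 and 3.27 CPM against 6.04, 6.25 and 6.58 CPM, and with 4T1 CM 4.58 and 3.87 CPM against 6.34, 7.09 and 6.12 CPM. The genotypes did not overlap. The log2 fold change was 0.98 with DMEM (SE 0.148, adjusted p = 0.000719), 0.69 with rmGM-CSF (SE 0.164, adjusted p = 0.0065) and 0.62 with 4T1 CM (SE 0.152, adjusted p = 0.0102, not called, and 0.00954 with TMM normalization). The rmGM-CSF difference dropped to 0.46 (adjusted p = 0.198) without mouse 113 and also lost its call without mouse 114, 115 or 116 or in a model of the compared libraries alone, and the call with DMEM was lost without mouse 112 or 113.

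Selenop, the secreted protein that carries selenium between tissues and that holds most of the selenocysteine codons here, had lower values in STAT5cKO libraries, but the difference did not pass the threshold. With DMEM its level was 3110 and 3360 CPM in STAT5fl/fl and 2790, 2400 and 2440 CPM in STAT5cKO. With rmGM-CSF it was 2690 and 3100 CPM against 2400, 2340 and 2260 CPM, and with 4T1 CM 2720 and 3370 CPM against 2430, 2340 and 2520 CPM. The genotypes were apart within each treatment. With rmGM-CSF and 4T1 CM the gap was smaller than that between the STAT5fl/fl mice, of which mouse 112 was the lower in all 3 treatments. The log2 fold change was -0.35 (SE 0.094, adjusted p = 0.0351), -0.31 (SE 0.0941, adjusted p = 0.0296) and -0.33 (SE 0.0941, adjusted p = 0.0268). The threshold was passed in all 3 treatments with DESeq2 (adjusted p = 0.00403, 0.00513 and 0.00388) and with edgeR without the low-count filter (0.00296, 0.00319 and 0.00245). It was also passed with rmGM-CSF in a model of the compared libraries alone (adjusted p = 0.00323) and with 4T1 CM without mouse 112 (log2 fold change -0.47, adjusted p = 0.00805). Without mouse 113 the log2 fold changes were -0.29, -0.21 and -0.16 (adjusted p = 0.184, 0.269 and 0.384 by edgeR).

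Between the genotypes the mix of selenoprotein transcripts differed, and their mean total was lower in STAT5cKO. The CPM summed over the 24 genes was 4980 ± 154 in STAT5fl/fl (SD, n = 2) and 4670 ± 154 in STAT5cKO (SD, n = 3) with DMEM, 4940 ± 230 and 4680 ± 36.6 with rmGM-CSF, and 5060 ± 483 and 4800 ± 117 with 4T1 CM. Selenop made up 64.9%, 58.6% and 60% of that sum in STAT5fl/fl with DMEM, rmGM-CSF and 4T1 CM, and 54.5%, 49.8% and 50.6% in STAT5cKO. Gpx1 made up 6.27%, 6.89% and 7.87% in STAT5fl/fl and 13.1%, 13.6% and 14.6% in STAT5cKO. These shares restate the levels above, among them the Selenop difference that edgeR did not call, and were given no test of their own.

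The other 3 genes showed no called difference between the genotypes. Selenos and Selenok are ER membrane proteins of the machinery that returns misfolded proteins to the cytosol for degradation, and Selenok also serves protein palmitoylation. Group means of Selenos ran from 59 to 66.3 CPM, with log2 fold changes of 0.05, 0.01 and 0.12. Those of Selenok ran from 71 to 92.4 CPM, with log2 fold changes of 0.06, 0.07 and 0.07. Txnrd2, the mitochondrial thioredoxin reductase, had group means of 17.8 to 23.3 CPM and log2 fold changes of -0.06, 0.20 and -0.11. The widest of these 9 intervals, that of Txnrd2 with rmGM-CSF, ran from -0.016 to 0.41. All STAT5cKO libraries nevertheless lay above the STAT5fl/fl libraries for Selenos with 4T1 CM and for Selenok and Txnrd2 with rmGM-CSF. A lack of overlap within a treatment thus also occurred without a call, and its share among all genes was not counted. The pseudogenes Selenok-ps8 (38 to 74 counts) and Selenok-ps6 (20 to 36 counts) may share reads with Selenok.

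**Figure D2:**
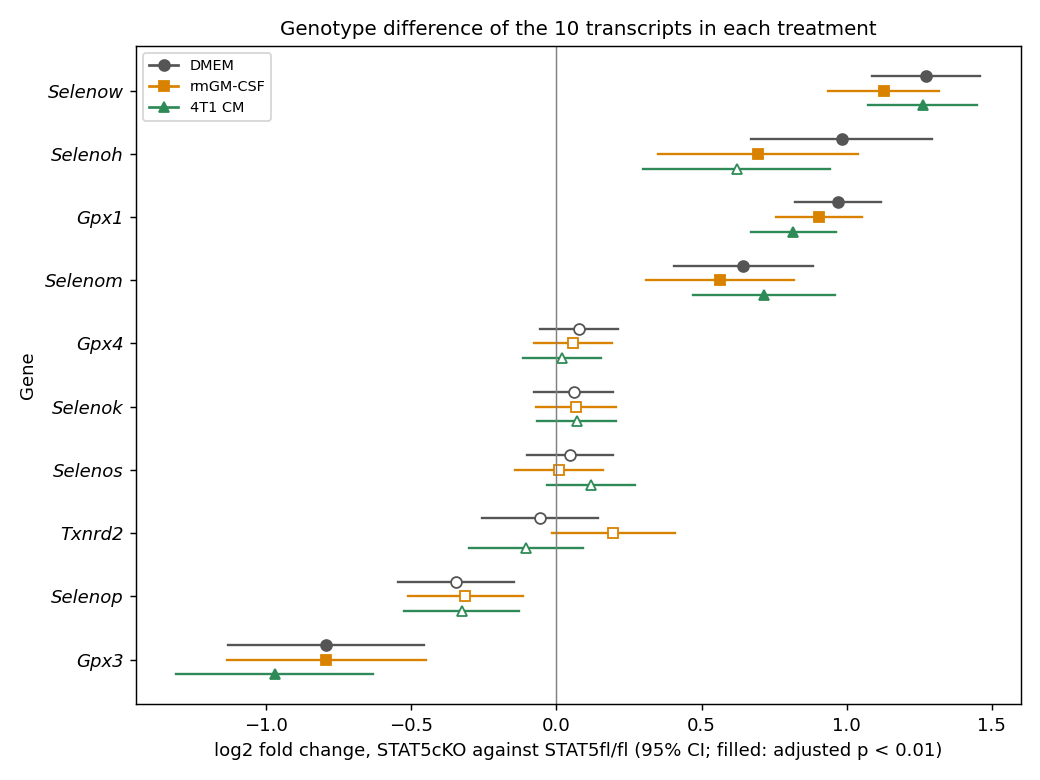
Log2 fold change of STAT5cKO against STAT5fl/fl (horizontal axis, lines are 95% confidence intervals) for the 10 genes in DMEM (circles), rmGM-CSF (squares) and 4T1 CM (triangles), filled where the adjusted p-value was under 0.01. Selenow lay between 1.13 and 1.27 and Gpx3 between -0.97 and -0.79.

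The genotype difference of none of the 10 genes was found to change with treatment. As an interaction, 0 of 10 passed the test for rmGM-CSF against DMEM (3.11% of all genes), 0 of 10 for 4T1 CM against DMEM (1.27%) and 0 of 10 for 4T1 CM against rmGM-CSF (1.47%). Txnrd2, for 4T1 CM against rmGM-CSF, was the only gene with an unadjusted p-value under 0.05 (log2 difference -0.30, SE 0.137, adjusted p = 0.388 by edgeR), and DESeq2 called 0 of 10 in each. For Gpx1 the interaction of 4T1 CM and genotype was -0.15 (95% CI -0.36 to 0.049), and for Selenow it was -0.01 (-0.27 to 0.25). The interval of Selenoh was wider (-0.82 to 0.093).

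Few of the 10 genes were called between treatments. Since expression in these libraries entered their choice, nothing is read from these shares in this and the next paragraphs. rmGM-CSF against DMEM changed 0 of 10 in STAT5fl/fl and 0 of 10 in STAT5cKO BMDMs, where 28.5% and 23.5% of all genes were called. Selenok in STAT5cKO was the only gene with an unadjusted p-value under 0.05 (log2 fold change 0.14, adjusted p = 0.0757 by edgeR), and DESeq2 called 0 of 10 in each genotype. The log2 fold changes ran from -0.16 for Selenop to 0.14 for Selenow in STAT5fl/fl, and from -0.22 for Selenoh to 0.14 for Selenok in STAT5cKO.

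4T1 CM against DMEM raised Gpx1 and Selenok in STAT5fl/fl (2 of 10, beside 37.4% of all genes) and Selenok in STAT5cKO (1 of 10, beside 37.6%). For Gpx1 the log2 fold change was 0.35 in STAT5fl/fl (SE 0.0747, adjusted p = 0.000929), with all mice above those in DMEM, and 0.19 in STAT5cKO (SE 0.0604, adjusted p = 0.0132, not called). Selenok went from 69 to 73 CPM with DMEM to 86.3 to 89.7 CPM with 4T1 CM in STAT5fl/fl, and from 71.1 to 77.9 CPM to 89.1 to 98.9 CPM in STAT5cKO, so that the treatments did not overlap. Its log2 fold change was 0.31 (SE 0.0706, adjusted p = 0.00156) and 0.32 (SE 0.0574, adjusted p = 0.000167). In STAT5fl/fl, with 2 mice, leaving out mouse 112 or 113 ended the call of Selenok, and leaving out mouse 113 ended that of Gpx1.

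4T1 CM against rmGM-CSF gave higher Gpx4 and Txnrd2 in STAT5fl/fl (2 of 10, beside 30.5% of all genes) and higher Gpx4 in STAT5cKO (1 of 10, beside 34.1%). Gpx4 had 117 and 106 CPM with rmGM-CSF and 132 CPM in both mice with 4T1 CM in STAT5fl/fl, a log2 fold change of 0.25 (SE 0.0696, adjusted p = 0.00829). In STAT5cKO it had 115 to 116 CPM and 130 to 138 CPM, a log2 fold change of 0.21 (SE 0.0565, adjusted p = 0.00573). Txnrd2 in STAT5fl/fl rose from 17.4 to 18.1 CPM to 22.1 to 24.5 CPM (log2 fold change 0.39, SE 0.107, adjusted p = 0.00703). No member was called in either genotype when the low-count filter was removed (0 of 10 in each). In STAT5fl/fl the calls of both genes were also lost without mouse 112, 113 or 115, and in STAT5cKO that of Gpx4 without mouse 114, 115 or 116. In a paired comparison that blocks on the mouse, Gpx4 in STAT5fl/fl just missed the threshold (adjusted p = 0.0102), leaving Txnrd2, and Selenom joined Gpx4 in STAT5cKO (1 and 2 genes called). For Gpx4 and Txnrd2 the interaction with genotype did not pass the test, so a response particular to either genotype was not shown.

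**Figure D3:**
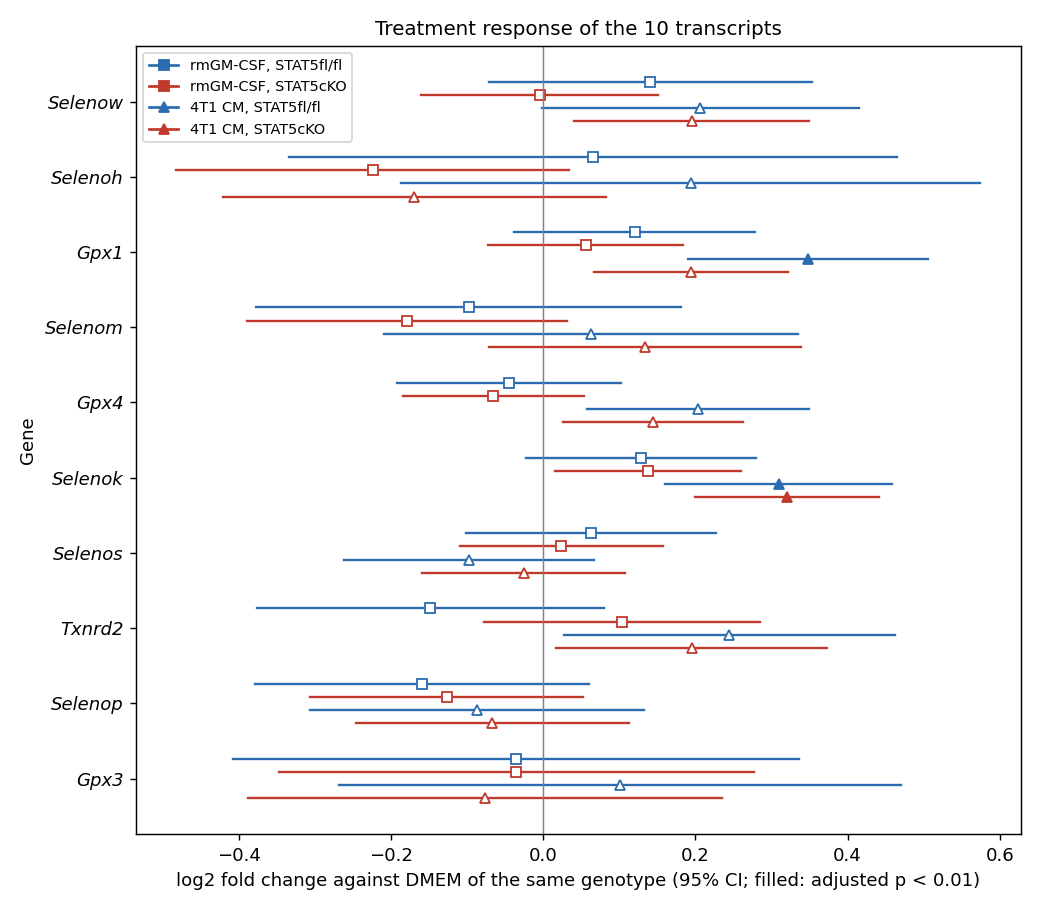
Log2 fold change of rmGM-CSF (squares) and 4T1 CM (triangles) against DMEM in STAT5fl/fl (blue) and STAT5cKO (red) for the 10 genes, with 95% confidence intervals, filled where the adjusted p-value was under 0.01. The filled points are Gpx1 with 4T1 CM in STAT5fl/fl (0.35) and Selenok with 4T1 CM in both genotypes (0.31 and 0.32).

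The remaining 14 selenoprotein genes were compared in the same way. Of these, 4 (Gpx2, Dio1, Dio3 and Selenov) failed the low-count filter, and 10 were tested. Selenof, an ER protein of glycoprotein folding, was higher in STAT5cKO with DMEM (176 against 134 CPM, log2 fold change 0.40, SE 0.0775, adjusted p = 0.00488), a call lost without mouse 112, 113, 115 or 116. No other gene of the 10 was called between the genotypes by edgeR in any treatment. The calls among all tested genes were 2.49%, 9.8% and 7.7% with DMEM, rmGM-CSF and 4T1 CM. At an unadjusted p-value under 0.05, Selenof included, there were 4 genes with DMEM, 4 genes with rmGM-CSF and 2 genes after 4T1 CM. The share of all genes under this unadjusted cut was not counted, and nothing is read from these counts. DESeq2 called Txnrd1 and Selenof with DMEM and Selenon with 4T1 CM. The median log2 fold change of the 10 tested genes was 0.063 in DMEM, 0.089 under rmGM-CSF and 0.033 under 4T1 CM. A cysteine codon 3 before the selenocysteine codon, which Selenow, Selenom and Selenoh had, was also present in Selenot, Selenoo and the untested Selenov. With DMEM, rmGM-CSF and 4T1 CM the log2 fold change was 0.09, -0.07 and 0.05 for Selenot. For Selenoo it was -0.12, -0.14 and -0.08 (adjusted p with DMEM = 0.639 for Selenot and 0.493 for Selenoo by edgeR). Whether this codon bears on the differences was not tested. The treatments acted on other genes of this list, which are named here after their values were seen. Txnrd1, the cytosolic thioredoxin reductase, rose with rmGM-CSF by a log2 fold change of 1.45 in STAT5fl/fl and 1.05 in STAT5cKO (adjusted p = 1.58e-10 and 1.06e-09), and with 4T1 CM by 1.18 and 0.92 (adjusted p = 1.69e-09 and 2.19e-09), whereas its mitochondrial counterpart Txnrd2 was not called against DMEM. Dio2, the deiodinase that activates thyroid hormone, fell with 4T1 CM by 2.21 on the log2 scale in STAT5fl/fl and by 1.73 in STAT5cKO (adjusted p = 9.65e-06 and 1.44e-05). Sephs2, which makes the selenium donor for selenocysteine, fell with rmGM-CSF by 0.68 and 0.41 (adjusted p = 4.51e-05 and 0.000891). The other called changes against DMEM were those of Selenof with 4T1 CM in STAT5fl/fl (0.38, adjusted p = 0.00129) and Selenon with rmGM-CSF in STAT5cKO (-0.23, adjusted p = 0.00674).

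**Figure D4:**
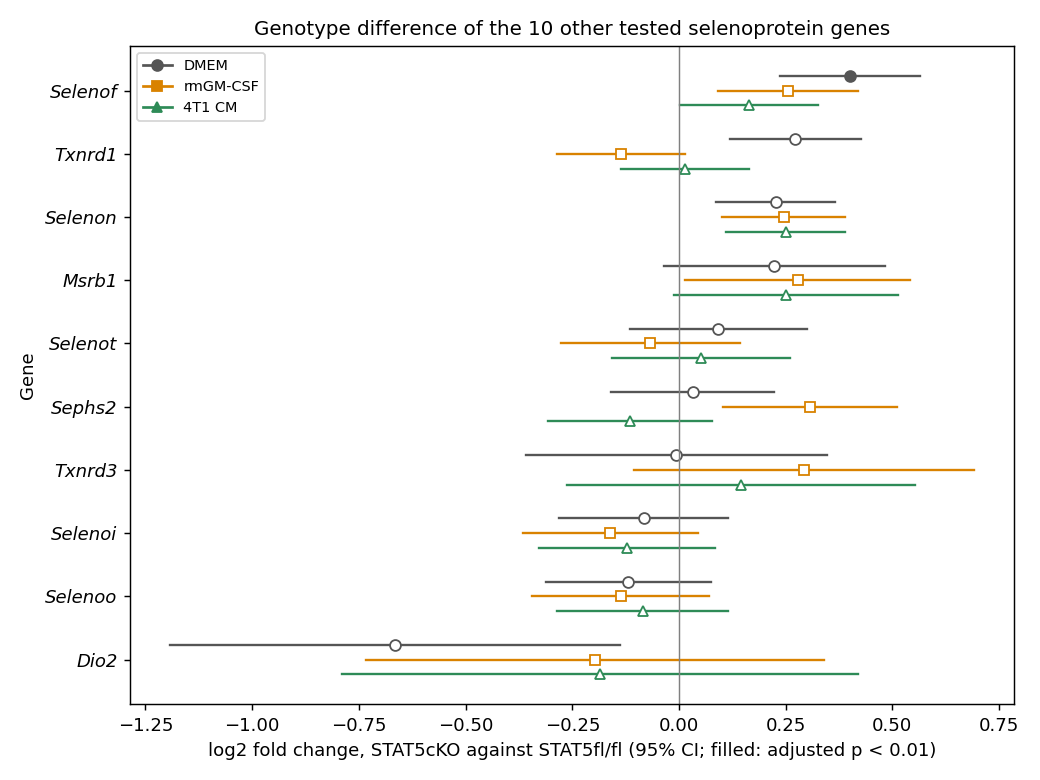
Log2 fold change of STAT5cKO against STAT5fl/fl, with 95% confidence intervals, for the 10 other tested selenoprotein genes in DMEM (circles), rmGM-CSF (squares) and 4T1 CM (triangles), filled where the adjusted p-value was under 0.01. The only filled point is Selenof with DMEM (0.40); the interval of Dio2 is the widest.

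Genes that make selenocysteine or take up selenium were compared between the genotypes. Of 9 such genes (Secisbp2, Secisbp2l, Eefsec, Sepsecs, Pstk, Sephs1, Trnau1ap, Scly and Lrp8), 0 were called in any of the 3 treatments by edgeR. Of all tested genes 2.49%, 9.8% and 7.7% were called with DMEM, rmGM-CSF and 4T1 CM. With only 9 genes, a count of 0 beside these shares does not set the list apart. At an unadjusted p-value under 0.05 there were 0, 3 and 1 of the 9 with DMEM, rmGM-CSF and 4T1 CM, given without the share of all genes under that cut. DESeq2 called 1, the selenoprotein P receptor Lrp8, lower in STAT5cKO with rmGM-CSF (log2 fold change -0.63, adjusted p = 0.0202 by edgeR). The median log2 fold change was 0.014, 0.019 and -0.086. Of the 4 glutathione peroxidases without selenocysteine, Gpx7 alone was tested, with group means of 0.25 to 1.09 CPM. Its log2 fold change with DMEM, rmGM-CSF and 4T1 CM was 0.72, 1.38 and 0.73 (adjusted p = 0.428, 0.139 and 0.257 by edgeR). Neither edgeR nor DESeq2 called it, and at these low levels a difference cannot be judged.

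Genes around the peroxidases were also compared between the genotypes. Of all tested genes 2.49%, 9.8% and 7.7% were called with DMEM, rmGM-CSF and 4T1 CM. The lists in this and the next paragraph were chosen with earlier results of these data known, and nothing is read from their counts. Of 7 tested genes of glutathione synthesis and use, Gclm, the modifier subunit of the rate-limiting enzyme, was higher in STAT5cKO with DMEM (log2 fold change 0.55, adjusted p = 0.00964), Gss, glutathione synthetase, with 4T1 CM (0.50, adjusted p = 0.00704) and the glutaredoxin Glrx with rmGM-CSF (0.74, adjusted p = 0.000774). Chac1, which degrades glutathione, was lower with rmGM-CSF (-0.86, adjusted p = 0.0039). Of 10 thioredoxin and peroxiredoxin genes, Srxn1, the sulfiredoxin that reactivates peroxiredoxins, was higher in all 3 treatments (log2 fold change 0.40, 0.69 and 0.46, adjusted p = 0.0075, 1.12e-05 and 0.000702), and the peroxiredoxin Prdx1 with rmGM-CSF (0.36, adjusted p = 0.00667). Of 5 further antioxidant genes, the heme oxygenase Hmox1 was higher with rmGM-CSF (0.36, adjusted p = 0.00589) and the mitochondrial superoxide dismutase Sod2 with 4T1 CM (0.40, adjusted p = 0.00633).

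Of 7 tested genes of lipid peroxidation and iron handling, 2 were higher in STAT5cKO in every treatment. Of all tested genes 0.938%, 3.57% and 4.13% were higher with DMEM, rmGM-CSF and 4T1 CM. The list was chosen with earlier results of these data known, so nothing is read from this comparison. Alox5, the 5-lipoxygenase, had log2 fold changes of 1.08, 1.17 and 1.04 with DMEM, rmGM-CSF and 4T1 CM (adjusted p = 0.000295, 3.95e-05 and 8.21e-05). Aifm2, which suppresses ferroptosis in parallel to Gpx4, had 0.58, 0.81 and 0.55 (adjusted p = 0.00765, 0.000184 and 0.00318). The iron exporter Slc40a1 was lower with DMEM (-0.82, adjusted p = 0.000192). Of 10 genes of ER-associated degradation, the partners of Selenos and Selenok, the ATPase Vcp was higher in all 3 treatments (0.38, 0.28 and 0.38, adjusted p = 0.00288, 0.00864 and 0.00116) and the chaperone Hspa5 with DMEM (0.39, adjusted p = 0.00117). Of the calls named from these lists, those of Alox5 with rmGM-CSF and 4T1 CM, Srxn1 with rmGM-CSF and Slc40a1 with DMEM were kept on leaving out any mouse. Each of the others was lost without mouse 112, mouse 113 or both. The Chac1 call was also lost with DESeq2 and with the legacy form of the test. In a model of the compared libraries alone, the 4T1 CM calls of Gss, Srxn1, Sod2, Aifm2 and Vcp and the DMEM call of Gclm were lost. That of Gss was also lost with mouse as a random effect, and that of Vcp with rmGM-CSF without the low-count filter. DESeq2 further called Glrx and Sod2 with DMEM and Txnip with 4T1 CM.

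Calls for 4T1 CM were also counted in the lists of neighbouring genes, which were chosen with earlier results of these data known. Nothing is read from these counts. Against DMEM, where 37.4% of all tested genes were called in STAT5fl/fl and 37.6% in STAT5cKO, 6 of 10 thioredoxin and peroxiredoxin genes were higher in STAT5fl/fl, and in STAT5cKO 6 were higher and 1 was lower. Of the glutathione genes, 4 of 7 were higher in STAT5fl/fl and 3 of 7 in STAT5cKO, and none was lower. Of the 10 genes of ER-associated degradation, 3 were higher and 1 lower in STAT5fl/fl, and 3 were higher in STAT5cKO. Of the 5 further antioxidant genes, 1 was higher and 1 lower in STAT5fl/fl, and 1 was higher in STAT5cKO. Of the 7 genes of lipid peroxidation and iron handling, 2 were higher and 1 lower in STAT5fl/fl, and 4 were higher and 1 lower in STAT5cKO.

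Across the 15 libraries the genes that were higher in STAT5cKO also had like profiles, as follows from their levels. Gpx3, which was lower, had the opposite profile, with a Pearson r of -0.859 with Gpx1, -0.897 with Selenow, -0.811 with Selenom and -0.881 with Selenoh. These correlations of log2 CPM are descriptive, since all 15 points share the genotype difference and come from 5 mice. Gpx1 and Selenow had a Pearson r of 0.988 (n = 15), and among all tested genes each was the gene most like the other. After Selenow, Gpx1 was most like Alox5 (r = 0.952) and the chemokine receptor Cx3cr1 (r = 0.951), and Selenow, after Gpx1, was most like Alox5 (r = 0.941) and Cpsf1 (r = 0.94). Selenom was most like Selenow (r = 0.927), Gpx1 (r = 0.921) and Chchd6 (r = 0.919). Selenoh was most like Antxr1 (r = 0.942), Klhl12 (r = 0.935) and Gbf1 (r = 0.929).

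The other members, like Selenoh, had neighbours outside the family. Gpx3 was most like Susd1 (r = 0.925), Col23a1 (r = 0.924) and Lilra5 (r = 0.922), and Selenop was most like B3glct and Snx5 (r = 0.924 each) and Eid1 (r = 0.912). Gpx4 was most like Rnf125 (r = 0.952), Mapk3 (r = 0.951) and Siva1 (r = 0.935), and among the genes most like Selenok were Mdh2 (r = 0.971) and Srpr (r = 0.967). The profiles of Txnrd2 (Trub2, r = 0.856, Sel1l3, r = 0.829, and Gng11, r = 0.827) and Selenos (Bccip, r = 0.784, Dhx40, r = 0.772, and Rad17, r = 0.766) had the least close neighbours.

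Promoters were searched for 2 motifs, from 250 bases before to 50 after each start in RefSeq (GRCm38.p6), on both strands. TTCNNNGAA, the core letters that STAT dimers bind, occurred in 0 of the 15 promoters listed for the 10 genes and in 8.3% of all 32851 promoters. TGACNNNGC, the core of the antioxidant response element, occurred in 1 of 15, that of Selenok, and in 12.4% of all promoters. A match or its absence describes the letters of this window only. Most members are short genes, with summed exon lengths from 736 bp in Selenow to 4401 bp in Txnrd2. Among the 2601 tested genes with the shortest exon lengths (57 to 2069 bp) the median genotype log2 fold change was 0.004 in DMEM, -0.025 under rmGM-CSF and -0.062 under 4T1 CM.

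In the genome (GRCm38), Gpx1 (ENSMUSG00000063856) lies at chromosome 9, 108338903 to 108340343, on the plus strand, and Gpx3 (ENSMUSG00000018339) at chromosome 11, 54902453 to 54910377, on the plus strand. Selenow (ENSMUSG00000041571) lies at chromosome 7, 15917208 to 15922402, on the minus strand, and Selenom (ENSMUSG00000075702) at chromosome 11, 3514684 to 3517351, on the plus strand. Selenoh (ENSMUSG00000076437) lies at chromosome 2, 84669215 to 84670770, on the minus strand, and Selenop (ENSMUSG00000064373) at chromosome 15, 3268547 to 3280508, on the plus strand. Of the 5 genes called by edgeR with DMEM, Gpx3 and Selenom are both on chromosome 11, where they differed in opposite directions, and the others are each on a chromosome of their own.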

How the data were processed

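RNA of 15 BMDM libraries (2 STAT5fl/fl and 3 STAT5cKO mice, each with DMEM, rmGM-CSF and 4T1 CM) was sequenced from stranded libraries. The authors trimmed the reads with Trimmomatic 0.33, aligned them to GRCm38 with HISAT2 2.1.0 and counted fragments per gene with featureCounts 1.6.2, and they deposited raw counts without normalization. Further libraries, under another conditioned medium, are named in the table's header without counts and were not analysed here. Groups were taken from the labels.

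The analysis of these counts used edgeR 4.0.16 under R 4.3.3. The filter required a CPM above 1 in 2 or more libraries and left 13005 genes, and normalization used the relative log expression method. All libraries entered a model of 6 groups without a term for the mouse, so libraries of the same mouse were treated as independent. Comparisons used the quasi-likelihood F test with Benjamini-Hochberg adjustment across the 13005 genes, and genes with an adjusted p-value under 0.01 were called. Normalized CPM is the count scaled by the normalized library size. Correlations used log2 CPM with a prior count of 2. Alternatives were TMM, no low-count filter, DESeq2 1.42.0, a threshold of 0.05, a model of the compared libraries alone, mouse as a random effect (limma 3.58.1) or a block, the exclusion of each mouse and, chosen after seeing the data, the legacy form of the test. The steps were tested on simulated counts with changes planted in a single group. The simulation held no mouse effect, so it does not cover libraries that share a mouse.

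The 10 genes and the gene lists were chosen with earlier results of these data known. Named from the lists were the genes called between the genotypes, with other genes described as named after their values were seen, and the 3 tested genes most like each of the 10, some of which are not reported here. Libraries with the same mouse number in the labels were taken to come from the same mouse. Their deviations from the group means correlated with r of 0.0926 to 0.213 in STAT5fl/fl (6 pairs) and 0.0548 to 0.214 in STAT5cKO (9 pairs). Replicates differed by more than sampling noise (chi-square per degree of freedom 4.41 to 24.1). Library totals of 16016736 to 22883108 counts limit the precision of low genes such as Selenoh. Selenocysteine codons were read from the annotated coding sequences and promoters from RefSeq.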

Additional observations from a re-analysis of the deposited data

How the results depend on the processing

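Each of the 9 genotype calls of Gpx1, Selenow and Selenom kept its direction under the 11 alternatives run on it, and no result reversed. The number of the 10 genes called between the genotypes was 5 with DMEM (2 to 4 on leaving out a mouse), 5 with rmGM-CSF (2 to 4) and 4 with 4T1 CM (3 to 5), and by DESeq2 6, 6 and 5. For 4T1 CM against DMEM it was 2 in STAT5fl/fl (0 to 2 on leaving out a mouse) and 1 in STAT5cKO, with 4 at an adjusted p-value under 0.05 and 2 by DESeq2. For 4T1 CM against rmGM-CSF it was 2 in STAT5fl/fl, with 4 at an adjusted p-value under 0.05, 3 by DESeq2, 0 without the low-count filter, 0 in a model of the compared libraries alone and 0 to 2 on leaving out a mouse. In STAT5cKO it was 1, with 4 at an adjusted p-value under 0.05, 0 without the low-count filter and 0 to 2 on leaving out a mouse. With the mouse as a replicate block, the paired comparison of 4T1 CM and rmGM-CSF called 1 gene in STAT5fl/fl and 2 in STAT5cKO, and the block changed no other count. The block could not be fitted to the genotypes within a treatment, whose mice differ, and there the mouse was a random effect, which left the counts at 5, 5 and 4. Leaving out a mouse also removes samples, and where it leaves a single STAT5fl/fl library per treatment that library is assumed to vary like the other groups. Whether the mice of a genotype were litter mates is not given in the sources used here. Of the 10 genes, Selenoh had the lowest counts (61 to 182).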
